A study of Arabidopsis thaliana with 8 samples.

Results

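LHCB4.3, PSBW, PSAE-1 and HPR, 4 nuclear genes of photosynthesis and photorespiration, were followed in rosettes of Arabidopsis thaliana carrying yda-2, a mutant allele of the mitogen-activated protein kinase kinase kinase gene YODA, and in wild type (WT). They were taken by name: every probe set that the array annotation assigns to 1 of these genes alone was kept, which gave 7 probe sets for 4 genes, out of 3794 single-gene probe sets for 3602 genes. The names themselves came from earlier results on the yda-2 minus WT difference in the same arrays, so that difference is given below as a description. The calls of the fit across all probe sets are stated once for it, with nothing read from them. Both genotypes were grown in soil at 22 °C in constant light, and RNA came from all aerial parts, taken before bolting. There were 4 yda-2 and 4 WT arrays (Affymetrix AtGenome1), with replicates of each genotype grown and harvested at separate times, and arrays of the same number are called a pair. How many plants went into each RNA sample is not given in the sources used here.

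Light reaching a leaf is absorbed by antenna proteins and passed to photosystem II, which splits water, and to photosystem I, which reduces ferredoxin. When Rubisco fixes oxygen in place of carbon dioxide, photorespiration returns part of the lost carbon through chloroplast, peroxisome and mitochondrion. LHCB4.3 (AT2G40100) encodes an isoform of CP29, a minor antenna protein that sits between the bulk antenna and the photosystem II core. PSBW (AT2G30570) encodes a small membrane subunit that stabilizes the assembly of photosystem II with its antenna. PSAE-1 (AT4G28750) encodes a stromal subunit of photosystem I near the ferredoxin docking site. HPR (AT1G68010) encodes the peroxisomal hydroxypyruvate reductase, which forms glycerate late in photorespiration. YODA acts in the pathway that restrains stomatal formation in the leaf epidermis.

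Values are signal intensities, scaled by the authors so that the average of each array met a target of 500. Levels of different probe sets are not comparable as amounts of RNA, so signals are compared between arrays for 1 probe set at a time, and ranks only place a probe set within its array. Where 2 probe sets of a gene are set against each other, it is their log2 ratio that is compared between arrays. In whole rosettes, fewer cells of a type and less RNA per cell cannot be told apart. On replicates 1 and 2 the 6 probe sets of PSBW, PSAE-1 and HPR ranked between 9 and 231 from the top of 8247. LHCB4.3 ranked between 569 and 2439 on the 8 arrays. No other tissue was measured, so these ranks do not test a leaf origin. Of 17 marker genes for guard cells, vascular tissue, flowers and roots, 0 had a tested single-gene probe set, so admixture of those cells was not assessed, and YODA's own transcript was not analysed here. The first principal component, with 44.2% of the variance, parted replicates 3 and 4 from replicates 1 and 2. The brightest probe set of an array reached 6226 to 10422 on the 4 arrays of replicates 3 and 4, and 22519 to 33920 on those of replicates 1 and 2. Both array sets hold both genotypes equally. What sets them apart besides harvest time is not given in the sources used here, and labelling, hybridization and scanning cannot be told apart from harvest.

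LHCB4.3 had the largest yda-2 minus WT difference of the 4 genes. Its probe set, 17054_s_at, gave signals of 703.7, 367.6, 1178 and 667.8 in yda-2 replicates 1 to 4. In WT replicates 1 to 4 it gave 1157, 698.5, 2450 and 2156. The yda-2 array was the lower one in every pair, but the groups overlapped, since yda-2 replicate 3 was above both WT replicate 1 and WT replicate 2. The means were 729.2 ± 334.9 in yda-2 and 1616 ± 825 in WT (SD, n = 4 each). On the scale of log2(signal + 16) the difference was -1.08 (SE 0.43, and 0.21 with the pairs as a block). Within pairs 1 to 4 it was -0.70, -0.90, -1.05 and -1.67. A lower yda-2 signal in 4 of 4 pairs was found for 7.1% of the 4788 tested probe sets (those averaging a signal of 100 or more). A higher one in all pairs was found for 9.44%. Of the tested probe sets 0.439% had a lower mean difference than LHCB4.3. Since LHCB4.3 was chosen from this contrast, these shares are a description.

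LHCB4.3 also differed between the array sets, in both genotypes. Genotype held 40.6% of its variation over the 8 arrays and the split between array sets 39.2%. The medians over all tested probe sets were 6.11% and 27.4%. The choice of LHCB4.3 from the genotype contrast favours a high genotype share, so nothing is read from that share. Its log2 level was 0.78 higher in yda-2 and 1.34 higher in WT on replicates 3 and 4 than on replicates 1 and 2, while the median tested probe set differed by 0.17 between the sets. It ranked between 569 and 2439 on the 8 arrays. Its signals were 1.63% to 3.76% of the maximum of their array on replicates 1 and 2, and 10.7% to 27.4% on replicates 3 and 4. The signal at which compression begins on replicates 3 and 4 was not tested. The suffix s in the maker's probe set names marks probes that can match more than 1 transcript, and binding of other CP29 transcripts to 17054_s_at was not tested.

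**Figure D1:**
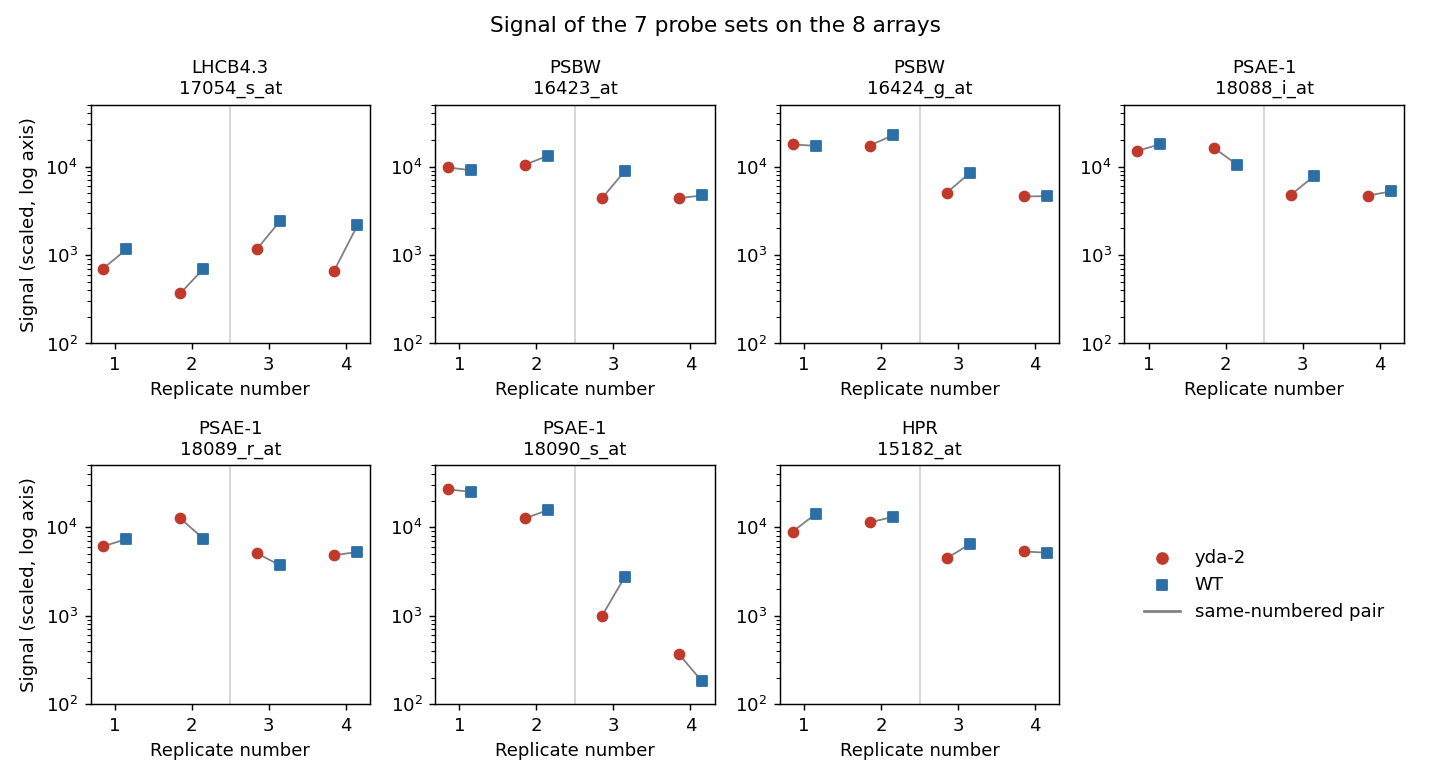
Scaled signal (log axis) of the 7 probe sets against replicate number, with yda-2 as circles, WT as squares and a line joining each same-numbered pair. LHCB4.3 is lower in yda-2 in all 4 pairs, and PSAE-1 18090_s_at drops to 181.7 on WT replicate 4 while the other PSAE-1 probe sets are at 3706 or higher on replicates 3 and 4.

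PSBW, the photosystem II subunit gene, has 2 probe sets, and the groups overlapped on both. Probe set 16423_at gave 9765, 10469, 4364 and 4397 in yda-2 replicates 1 to 4, and 9082, 13249, 8961 and 4706 in WT replicates 1 to 4. The one wide gap was in pair 3, where the log2 difference was -1.04, and it was 0.10, -0.34 and -0.10 in pairs 1, 2 and 4. Probe set 16424_g_at gave 17760, 17232, 5034 and 4595 in yda-2, and 17141, 22498, 8419 and 4620 in WT. It showed the same order, with its widest gap of -0.74 again in pair 3 and 0.05, -0.38 and -0.01 in pairs 1, 2 and 4. The mean log2 differences were -0.34 for 16423_at (SE 0.42, and 0.21 with the pairs as a block) and -0.27 for 16424_g_at (SE 0.60, and 0.18 with the block). The pair of probe sets correlated at r = 0.95 over the 8 arrays and at r = 0.97 once the mean of each array set was taken off, as a description over arrays that share the same RNA.

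Although the annotation assigns both to PSBW alone, the PSBW probe sets lost different amounts of signal between the array sets. Binding of other transcripts to either was not tested. On replicates 1 and 2 the log2 signal of 16424_g_at exceeded that of 16423_at by 0.72 to 0.92. On replicates 3 and 4 the same quantity lay between -0.09 and 0.21. The mean log2 difference of replicates 3 and 4 from replicates 1 and 2 was -1.76 for 16424_g_at and -0.98 for 16423_at. On replicates 3 and 4, the log2 ratio of 16424_g_at to 16423_at was 0.21 and 0.06 in yda-2, and -0.09 and -0.03 in WT. On replicates 1 and 2 this ratio was 0.86 and 0.72 in yda-2, and 0.92 and 0.76 in WT. The genotypes overlapped in this ratio on replicates 1 and 2 and not on replicates 3 and 4, with 2 arrays each. How often other probe set ratios part in this way was not counted, so nothing is read from it.

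PSAE-1, the photosystem I subunit gene, has 3 probe sets, which disagreed with each other. Probe set 18088_i_at gave 14994, 16187, 4806 and 4697 in yda-2 replicates 1 to 4, and 17871, 10449, 7848 and 5244 in WT replicates 1 to 4. Its mean log2 difference was -0.12 (SE 0.52, and 0.22 with the block), with yda-2 lower in 3 of 4 pairs. Probe set 18089_r_at gave 6090, 12596, 5057 and 4838 in yda-2, and 7355, 7451, 3706 and 5257 in WT. Its difference was 0.20 (SE 0.38, and 0.20 with the block), lower in 2 pairs and higher in 2. The third probe set, 18090_s_at, gave 26842, 12606, 990.8 and 368.7 in yda-2, and 25101, 15667, 2778 and 181.7 in WT, a difference of -0.18 (SE 1.57, and 0.33 with the block). The groups overlapped for all 3, and the sign of the difference depended on the probe set. Each difference was smaller than its SE without the block, so the signs do not show unlike genotype differences.

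The range of 18090_s_at was the widest among the members. It ranked between 13 and 71 on replicates 1 and 2, and between 499 and 3662 on replicates 3 and 4. Its log2 signal was lower on replicates 3 and 4 than on replicates 1 and 2 by a mean difference of -4.81, and 0.188% of tested probe sets had a lower one. The 18088_i_at and 18089_r_at signals of the same gene differed by -1.40 and -0.78 between the sets. Set against 18088_i_at within each array, 18090_s_at stood at -2.26 and -3.61 on yda-2 replicates 3 and 4 and at -1.49 and -4.73 on WT replicates 3 and 4. On replicates 1 and 2 the same quantity lay between -0.36 and 0.84. Both genotypes showed the drop, and the 3 probe sets gave no common level for PSAE-1 on replicates 3 and 4. The name of 18090_s_at also has the suffix s, and binding of other transcripts to the PSAE-1 probe sets was not tested.

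Other bright probe sets did the same. Among the 116 probe sets averaging 10000 or more on replicates 1 and 2, there were 14 below 1000 on yda-2 replicate 3, 8 on yda-2 replicate 4, 1 on WT replicate 3 and 20 on WT replicate 4. Their median signals on these arrays were 4674, 4043, 6790 and 4655. Below 1000 on yda-2 replicates 3 and 4 and on WT replicate 4 were 6 of the 116, and single gene names exist for 2 of the 6, PSAE-1 (18090_s_at) and LHCB4.1, which encodes another CP29 isoform. LHCB4.1 (15995_at) gave 27755, 10213, 203.0 and 382.9 in yda-2 replicates 1 to 4 and 24004, 21024, 2248 and 186.4 in WT replicates 1 to 4. LHCB4.1 and LHCB4.3 thus differed in opposite directions between the array sets, by -5.44 and 1.06 on the log2 scale. On WT replicate 4, the value 181.7 of 18090_s_at was also the exact value of 2 other probe sets among the 116, and of 1 probe set outside them. These probe sets were picked for their values and the counts carry no test.

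**Figure D2:**
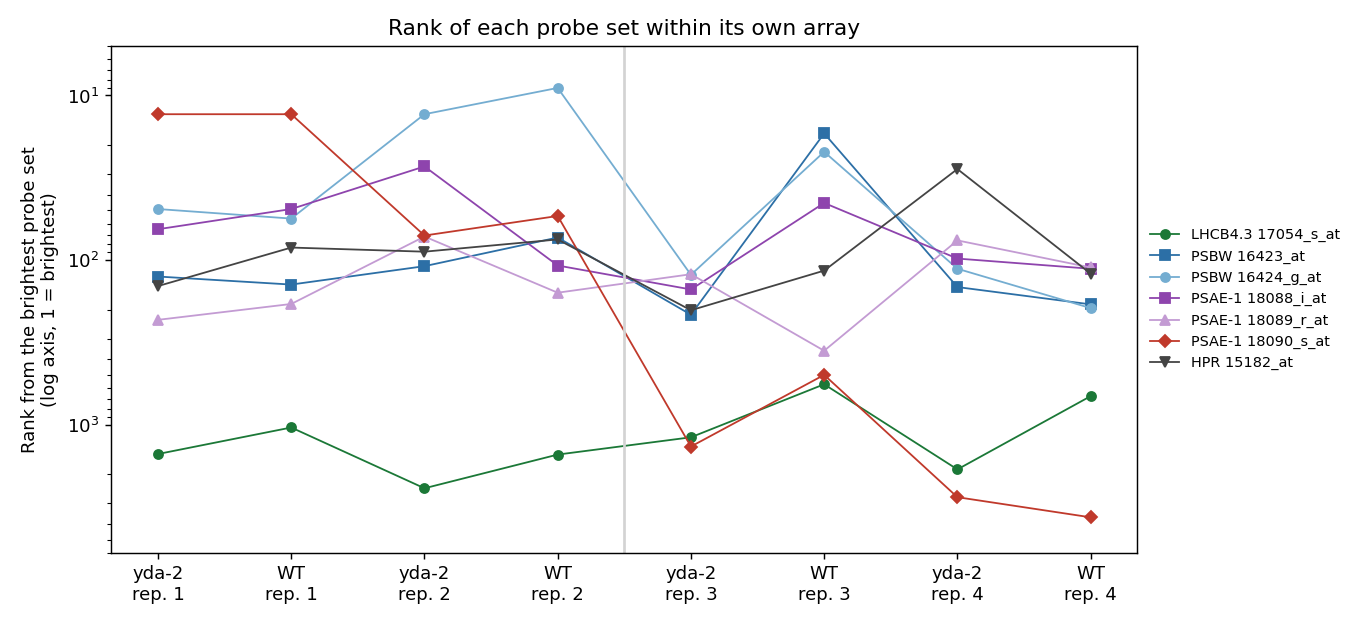
Rank of each of the 7 probe sets within its own array (log axis, 1 = brightest of 8247), with the yda-2 array left of the WT array of each pair. PSAE-1 18090_s_at leaves the top ranks on replicates 3 and 4, where it ranks between 499 and 3662, while the other PSBW, PSAE-1 and HPR probe sets rank between 17 and 356.

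HPR, the photorespiratory gene, was lower in yda-2 in 3 of 4 pairs. Probe set 15182_at gave 8905, 11344, 4455 and 5335 in yda-2 replicates 1 to 4, and 14134, 13076, 6426 and 5163 in WT replicates 1 to 4. The groups overlapped, and in pair 4 the yda-2 array was slightly above WT. The pair differences were -0.67, -0.20, -0.53 and 0.05 on the log2 scale, with a mean of -0.34 (SE 0.43, and 0.18 with the pairs as a block). The array sets held 86.7% of its variation and genotype 7.61%. The log2 difference of replicates 3 and 4 from replicates 1 and 2 was -1.04 in yda-2 and -1.24 in WT. In pair 4 HPR ranked 28 in yda-2 and 121 in WT, although the signals of 5335 and 5163 were close.

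None of the 7 probe sets was called in the fit across all tested probe sets (limma, adjusted p under 0.05, two-sided), with or without the pairs as a block. At an unadjusted p under 0.05 there was 1 of the 7 in each fit, that of LHCB4.3. Over all tested probe sets 0.0418% were called without the block and 0.188% with it, 2 and 9 in number, and 154 and 340 were at an unadjusted p under 0.05. Since the members came from this contrast, nothing is read from these counts. None of the 7 had groups without overlap, a state found with yda-2 lower for 0.647% and with yda-2 higher for 1.73% of tested probe sets, 2.38% in all.

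**Figure D3:**
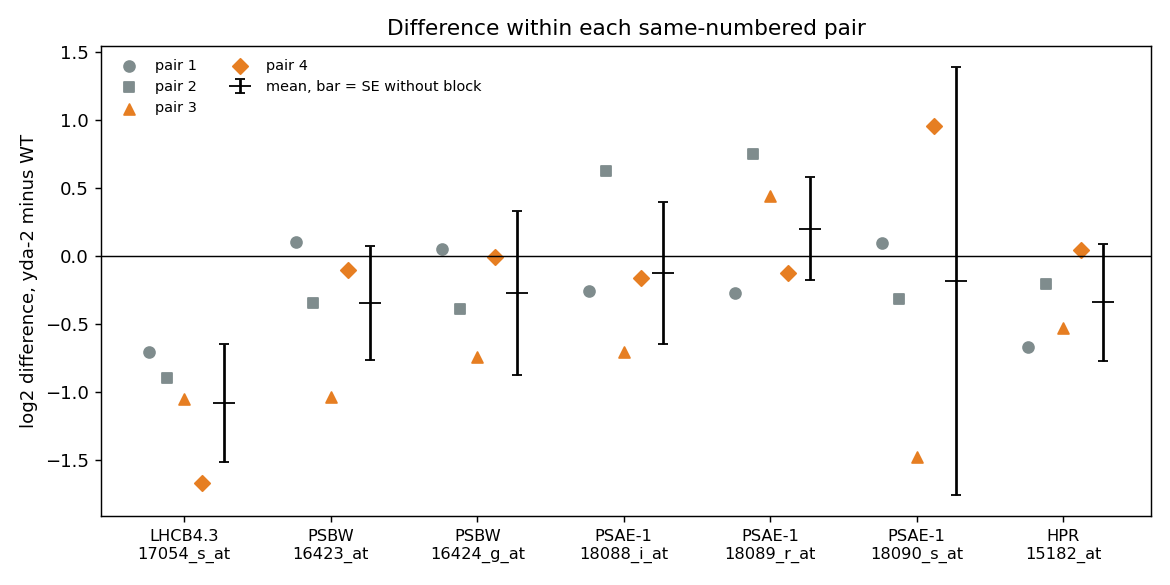
The log2 difference, yda-2 minus WT, within each same-numbered pair for the 7 probe sets, with the mean and its SE from the fit without the block. All 4 points of LHCB4.3 lie below 0, between -0.70 and -1.67, and every other probe set has pairs on both sides of 0.

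Whether the genotype difference depended on the array set was tested as an interaction. It is independent of the mean difference the members were chosen on only if both array sets vary equally, which was not tested. The array sets were themselves chosen with earlier results of these data known. The yda-2 minus WT difference of LHCB4.3 was -1.36 on replicates 3 and 4 and -0.80 on replicates 1 and 2, so the sets differed by -0.56 (SE 0.57, limma adjusted p = 0.973). It was -0.43 and 0.19 for PSAE-1 18088_i_at, a difference of -0.62 (SE 0.44, limma adjusted p = 0.973). For PSBW it was -0.57 and -0.12 on 16423_at and -0.37 and -0.17 on 16424_g_at. For HPR the order was the other way, -0.24 on replicates 3 and 4 and -0.44 on replicates 1 and 2, a difference of 0.20 (SE 0.36, limma adjusted p = 0.974). PSAE-1 18089_r_at had 0.16 and 0.24, and 18090_s_at had -0.26 and -0.11. By limma 0 of the 7 passed, and 0 of the 7 were at an unadjusted p under 0.05. Over all 4788 probe sets 0% passed and 150 were at an unadjusted p under 0.05. With the pairs as a block it was again 0% and 0 of the 7. With 2 pairs in each set the errors are wide, and a p above the threshold does not show that the differences were equal.

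The range of the arrays also differed between the genotypes within the pairs. The maximum signal was 6969 in yda-2 and 10422 in WT in pair 3, and 6226 in yda-2 and 7857 in WT in pair 4. In pair 2 it was 22519 in yda-2 and 26071 in WT. Pair 1 went the other way, with 33920 in yda-2 and 30768 in WT. Quantile normalization, which gives all arrays 1 distribution, brought the mean log2 difference of HPR to -0.07, that of PSBW 16424_g_at to -0.06 and that of PSAE-1 18088_i_at to -0.03. PSBW 16423_at stood at -0.28, PSAE-1 18089_r_at at 0.37 and 18090_s_at at -0.25 under it. LHCB4.3 was at -1.13. Spiked control transcripts were lower in yda-2 in 4 of 4 pairs, at a mean log2 signal of 9.999 ± 0.892 in yda-2 and 10.38 ± 0.95 in WT (SD, n = 4 each, exact permutation p = 0.514, two-sided, 0.771 adjusted over 3 controls). Over the 16 sign changes of the pair differences, the exact paired p was 0.125 for the spiked transcripts, the smallest that 4 pairs allow (0.188 adjusted). For ubiquitin the 3' over 5' log2 ratio was above that of the WT partner in 4 of 4 yda-2 arrays, at -0.11 ± 0.52 in yda-2 and -0.45 ± 0.41 in WT (exact permutation p = 0.343, 0.771 adjusted, and exact paired p = 0.125, 0.188 adjusted). The GAPDH ratio was higher in 2 pairs and lower in 2, at 0.28 ± 0.50 in yda-2 and 0.24 ± 0.50 in WT (exact permutation p = 1, 1 adjusted, with or without the pairing). The part of RNA quality and labelling in the members' differences was not tested.

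Most other measured genes of the pathway also had a lower mean in yda-2, by smaller amounts than LHCB4.3, and none was called. Of 109 genes on 8 lists of antenna, photosystem, electron transport, carbon fixation, photorespiration and chlorophyll synthesis genes, 14 had a tested single-gene probe set, the members included. With the brightest probe set of each gene, 12 of the 14 were lower in yda-2 and 2 higher, and 0 were called in either direction by limma with or without the block. Their median log2 difference was -0.22, against 0.02 over all tested probe sets, and it was -0.10 after quantile normalization. The median was -0.32 in pairs 3 and 4 and -0.16 in pairs 1 and 2, against 0.03 and 0.01 over all tested probe sets. Leaving out yda-2 replicate 3 gave 0.011, yda-2 replicate 4 gave 0.042 and WT replicate 1 gave 0.0022. Leaving out yda-2 replicate 2 gave -0.49, and WT replicate 4 gave -0.52. Leaving out 1 array leaves the genotypes unequal between the array sets.

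Among the 10 genes other than the members, 8 were lower in yda-2 and 2 higher, with a median of -0.18. In pairs 3 and 4 all 10 had a mean difference below 0, and in pairs 1 and 2 there were 5. The medians over all tested probe sets were 0.03 and 0.01 in the same order. The yda-2 array had the lower maximum in pairs 2, 3 and 4 and the higher one in pair 1. The part of the array range in these counts was not tested. The share of equally bright probe sets below 0 was not counted, here or for the full lists. LHCB4.1 was at -0.81 (SE 1.73), with signals that spanned 186.4 to 27755. LHB1B2, a bulk antenna protein of light-harvesting complex II, was at -0.07 on its bright probe set 12739_s_at and at 0.07 on its dim one, 12738_r_at. The photosystem I subunit gene PSAN was at -0.20 and lower in 4 of 4 pairs. The photosystem II genes PSBY and PSB27 were at -0.28 and 0.03. In the Calvin-Benson cycle RCA, which encodes Rubisco activase, was at -0.44 (SE 1.08), PRK, phosphoribulokinase, at -0.15 and SBPASE, sedoheptulose-1,7-bisphosphatase, at 0.06. The other photorespiratory gene measured, AT1G11860 for the T protein of glycine decarboxylase, was at -0.04. PORB, a protochlorophyllide oxidoreductase gene, was at -0.24.

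**Figure D4:**
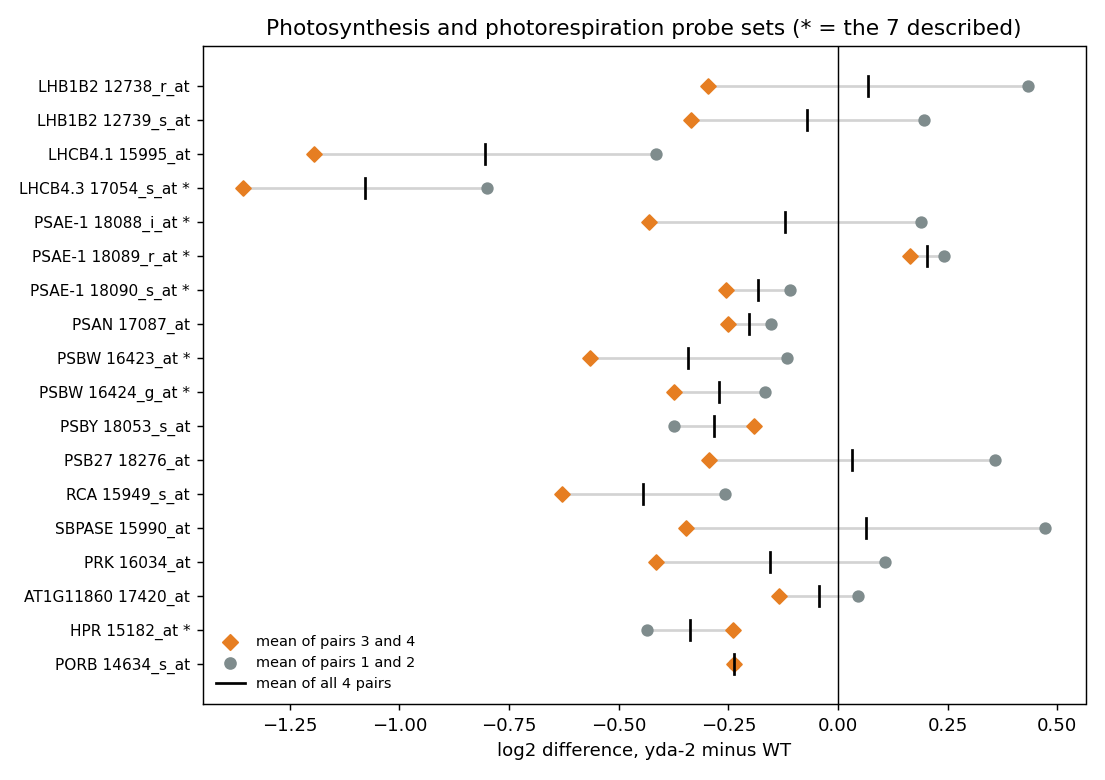
The log2 difference, yda-2 minus WT, of 18 photosynthesis and photorespiration probe sets, as the mean of pairs 3 and 4 (diamonds), of pairs 1 and 2 (circles) and of all 4 pairs (bars), with asterisks on the 7 described. LHCB4.3 has the lowest mean, -1.08, and LHCB4.1 follows at -0.81.

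For each probe set the 3 single-gene probe sets with the highest Pearson r of the log2 signal over the 8 arrays were taken, out of 2032 to 2034 compared. The arrays fall into 2 sets, so r includes the set difference, and the same was done after taking off the mean of each array set. That second r still includes the genotype difference. The highest of so many r over 8 arrays are high by selection, so the names are a description and nothing is read from them. Nearest to LHCB4.3 were TRXF2, a chloroplast thioredoxin (r = 0.92), FTSZ2-1, a chloroplast division protein (r = 0.91), and AT1G77090 (r = 0.89). With the set means off, PSAN (r = 0.95) came first, followed by TRXF2 (r = 0.91) and FTSZ2-1 (r = 0.88). Nearest to PSAE-1 18090_s_at were PSBY (r = 0.99), RCA (r = 0.97) and AT4G01150 (r = 0.97). With the set means off, PSBY (r = 0.95) came first, followed by EXO (r = 0.92) and AT4G01150 (r = 0.88). Nearest to 18088_i_at were LHB1B2 (r = 0.98), AT2G23120 (r = 0.97) and AT4G01150 (r = 0.96). The nearest to 18089_r_at were AT2G29150, AT4G15930 and AT4G31650, at r = 0.96, 0.95 and 0.94. For PSBW they were AT2G25210, AT2G37220 and AT4G34670 on 16423_at, with r of 0.98, 0.97 and 0.97. On 16424_g_at they were AT2G45180, LCR68 and AT4G17390, with r of 0.997, 0.99 and 0.99. For HPR they were AT4G32020, AT2G47880 and SAMDC, which encodes S-adenosylmethionine decarboxylase, with r of 0.97, 0.96 and 0.96. With the set means off, AT4G26230 came first for both PSBW probe sets, at r = 0.99 on 16423_at and 0.96 on 16424_g_at. It was followed by AT4G17390 (r = 0.95) and LCR68 (r = 0.95) on 16423_at, and by AT2G45180 (r = 0.96) and AT1G74470 (r = 0.93) on 16424_g_at. For HPR the first 3 were then AT4G39840, AT2G16460 and AOP3, at r = 0.94, 0.93 and 0.93. For PSAE-1 they were AT3G58610, PRA1.B4 and AT2G19680 on 18088_i_at, at r = 0.98, 0.95 and 0.95, and RBP45B, AT2G29910 and AT1G20890 on 18089_r_at, at r = 0.98, 0.95 and 0.91.

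LHCB4.3 did not follow the bright members across the arrays. Its r with the other 6 probe sets lay between -0.76 and -0.34 over the 8 arrays. With the mean of each array set taken off it lay between 0.37 and 0.47 for 5 of them and was -0.56 for PSAE-1 18089_r_at. The 3 PSAE-1 probe sets correlated with each other at 0.93 (18088_i_at with 18090_s_at), 0.68 (18088_i_at with 18089_r_at) and 0.57 (18089_r_at with 18090_s_at). Once the set means were taken off these were 0.56, -0.16 and -0.59.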

How the data were processed

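The deposited values are 1 signal intensity per probe set and array on a linear scale. Per the labels, the authors scaled the average signal of each array to 500. Software and detection calls: not given in the sources used here. Scaling sets the mean of an array and not its range, so a compressed range can shift bright probe sets without a shift in RNA. The table held 8297 probe sets, 50 of them controls, which were left out. Gene names come from the platform annotation, updated through gene identifiers to assembly TAIR10.1; 3784 of 3794 single-gene probe sets matched.

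Signals were used as log2(signal + 16), a scale that shrinks differences of low signals. The 4788 probe sets averaging 100 or more were tested with limma 3.58.1 in R 4.3.3 (lmFit, eBayes with the intensity trend, Benjamini-Hochberg, threshold 0.05), without a replicate block and for an interaction of genotype with array set. The scripts were tested on simulated data. Array controls were compared over all 70 assignments of the arrays and, added after the data were seen, over the 16 sign changes of the pair differences. Figures were drawn with matplotlib 3.10.9. The number of arrays limits the precision.

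Same-numbered arrays deviated together (r = 0.60, 0.30, 0.32 and 0.58 across probe sets), and the labels give the replicates as separate harvests, so the numbers were taken as pairs. The members, gene lists and the array sets were chosen with earlier results of these data known. Named were the members, the measured genes of the lists and, for each member probe set, the 3 most similar single-gene probe sets. Alternatives were array weights, the block, robust eBayes, eBayes without the trend, median centring, quantile normalization, a filter at 200 or none, a pseudocount of 1 or 64, and leaving out arrays or pairs. Sequences, promoter motifs and coordinates were not used here.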

Additional observations from a re-analysis of the deposited data

Results flagged for a closer look

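One value stood apart from the others of its group. PSAE-1 probe set 18089_r_at reached 12596 in yda-2 replicate 2, against 4838 to 6090 in the other 3 yda-2 arrays, with a gap to the next array of 0.839 of the group's range, above Dixon's 95% limit for 4 samples. The PSAE-1 probe set 18088_i_at was also highest in yda-2 replicate 2, at 16187, while 18090_s_at was highest in yda-2 replicate 1. The check was run on 36 groups of 4 arrays. Chance marks about 1 group in 20 if the 4 values come from 1 normal distribution. Each group mixed both array sets, so that rate need not hold here.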

How the results depend on the processing

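The differences of LHCB4.3, PSBW 16423_at and HPR kept their sign under all 26 alternatives, and no member was called under any. The alternatives reuse the arrays from which the members were chosen, and several leave the estimate unchanged, so nothing is read from the kept sign. Without 1 array at a time, LHCB4.3 lay between -1.42 and -0.80, PSBW 16423_at between -0.62 and -0.13, 16424_g_at between -0.69 and 0.070, HPR between -0.60 and -0.11, PSAE-1 18088_i_at between -0.42 and 0.19, 18089_r_at between -0.11 and 0.35 and 18090_s_at between -1.61 and 0.86. The median of the 14 pathway genes lay between -0.52 and 0.042, and was -0.10 after quantile normalization. With array weights 18090_s_at turned to 0.20, and on replicates 1 and 2 alone 18088_i_at was at 0.19. The 2 called probe sets, neither of them a member, became 9 with the replicate block and 11 with array weights. They were 1 without a filter, after quantile normalization or after median centring, 0 with a pseudocount of 1, a filter at 200, replicates 1 and 2 alone or the replicate block with quantile normalization, and between 0 and 2 without 1 array. In the blocked fits without 1 pair they were between 0 and 28, and without pair 3 PSAE-1 18088_i_at was at 0.073 and 18090_s_at at 0.25. For the difference between array sets, 18089_r_at turned to 0.43 after quantile normalization. Without 1 array that difference lay between -1.01 and -0.10 for LHCB4.3, -1.01 and -0.23 for PSAE-1 18088_i_at, 0.021 and 0.37 for HPR, -0.91 and 0.014 for PSBW 16423_at, -0.64 and 0.22 for 16424_g_at, -0.60 and 0.44 for PSAE-1 18089_r_at, and -2.06 and 1.76 for 18090_s_at, and 0 to 2 probe sets were called. The block changed no call of a member. Leaving out 1 array leaves the genotypes unequal between the array sets; the cause of the other shifts was not tested. Signals near the pseudocount did not occur for the members.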
